A study of Mus musculus with 31 samples.

Results

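Cisplatin was compared with phosphate-buffered saline (PBS) in the kidneys of male mice that carried the Nbl1 genotype labelled HET, all on the B6 background. These are 15 of the 31 libraries of the study, 8 from HET animals given cisplatin and 7 from HET animals given PBS, with 1 animal per library. They were chosen by the genotype and treatment in their titles, and all genes were analysed. Treatment lasted 4 weeks from the age of 8 weeks, and kidneys were taken 3 days later. The stated age at collection, 11 weeks, falls short of the sum of these spans. Treated and control animals carry the same HET label, and 4 libraries go against it at Nbl1, as given below. Neither the kind of allele nor the cisplatin dose was stated in the sources at hand. The other 16 libraries come from wild-type (WT) males given cisplatin (8) or PBS (8) on the same schedule. They share the fit, and were used to test where the HET response differed from the WT response. The labels do not say whether animals shared a litter or a cage.

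Cisplatin, a platinum compound used against tumours, forms adducts and cross-links in DNA. In the kidney it is concentrated by the proximal tubule, the segment that reabsorbs most of the filtrate, and DNA damage there activates the transcription factor p53. Injured tubule cells lose their transport proteins, switch on genes such as Havcr1 (kidney injury molecule 1) and Lcn2, and can later either regain their identity or signal to fibroblasts and immune cells. Nbl1 codes for an extracellular protein that binds and blocks bone morphogenetic proteins (BMPs), a family of growth factors that maintain tubule cells.

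Total counts per library ran from about 29231800 to 36696000 under PBS and from 26869000 to 31915000 under cisplatin. Lrp2 of the proximal tubule, Umod of the thick ascending limb and Aqp2 of the collecting duct were read at 106 CPM or more (counts per 1000000 of the TMM-scaled library) in each of the 15 libraries, as in kidney. Mitochondrial transcripts made up 7.96% to 8.52% of the counts under PBS and 3.12% to 5.12% under cisplatin. In a principal component analysis of 2000 genes with high variance, 71.7% of the variance lay on a leading axis along which the treatments did not overlap. Within the cisplatin group the library HET cisplatin 6 stood apart, at 15.1 on that axis against 46.1 to 72.8 in the other 7 treated libraries. The library HET cisplatin 4 held RNA of the adrenal cortex: Cyp11b1 and Cyp21a1, enzymes of adrenal steroid synthesis, gave 5287 and 5968 counts there and at most 3 in any other HET library. All 8 cisplatin animals and 4 of the PBS animals are numbered between 600 and 630, while HET PBS 1 to 3 lie outside that range.

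The targeted gene was read first. Nbl1 (ENSMUSG00000041120, chromosome 4, bases 139082284 to 139092993 of GRCm38) stood at 0.106, 3.75, 4.20, 3.26, 3.64, 0.434 and 3.66 CPM in HET PBS 1 to 7. In HET cisplatin 1 to 8 it stood at 9.71, 9.96, 1.08, 0.861, 7.66, 4.68, 10.8 and 13.9 CPM. The libraries labelled HET PBS 1 and 6 and HET cisplatin 3 and 4 held far less Nbl1 than the others of their group, so the genotype label is uneven at this gene. The log2 fold change was 1.43 (SE 0.46, edgeR adjusted p = 0.00839), and the groups overlapped. An exact permutation test of log2 CPM over the 15 libraries, two-sided, gave p = 0.105 for a mean difference of 1.54. Without the 4 low libraries the log2 fold change was 1.35 (adjusted p = 1.2e-05), a choice made on Nbl1 itself and so no separate evidence. With limma voom (adjusted p = 0.113) and in a fit of the HET libraries alone (adjusted p = 0.0548) Nbl1 missed the threshold.

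**Figure D1:**
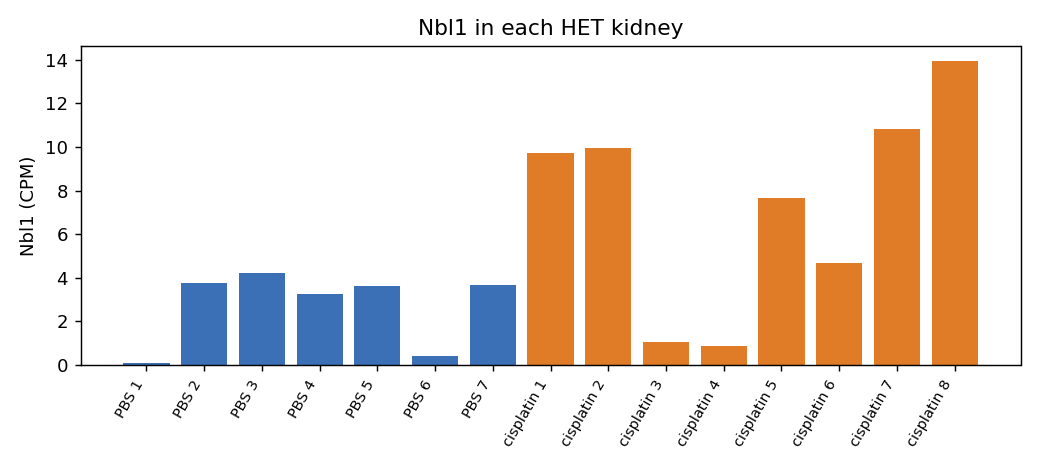
Nbl1 in each of the 15 HET libraries, in CPM on a linear axis from 0, with bars coloured by treatment. PBS 1 and 6 and cisplatin 3 and 4 are at or below 1.08 CPM, and the other 11 lie between 3.26 and 13.9 CPM.

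Cisplatin shifted most of the transcriptome of the HET kidney. Of 19268 tested genes 11374 passed an adjusted p of 0.05, which is 59.0% of them. Of these 5981 were higher (31%) and 5393 lower (28%), and the median log2 fold change of all tested genes was 0.059. Past 2-fold there were 1820 higher and 1469 lower genes, and past 16-fold 120 and 96. For 26.0% of the tested genes the CPM ranges of the groups did not overlap. The balance of the directions rests on the scaling: with library totals in place of TMM the median of all genes was 0.46, and 83.3% of the called genes were higher against 52.6% with TMM. With log2(TPM + 1) values 86.1% were higher. The small noncoding genes Rn7s1, Rn7s2, Rn7sk, Rpph1 and Rmrp held 49.6% to 55.1% of the deposited TPM under PBS. Under cisplatin they held 53.2% to 56.6%, so the TPM scale rests largely on them. Counts of calls with library totals are given beside the lists below whose balance they move. Each list is a selection of genes, chosen with earlier results of these data known. Its counts are to be read beside the 31% higher and 28% lower of all genes. In whole kidney, fewer cells of a type and less RNA per cell cannot be told apart.

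**Figure D2:**
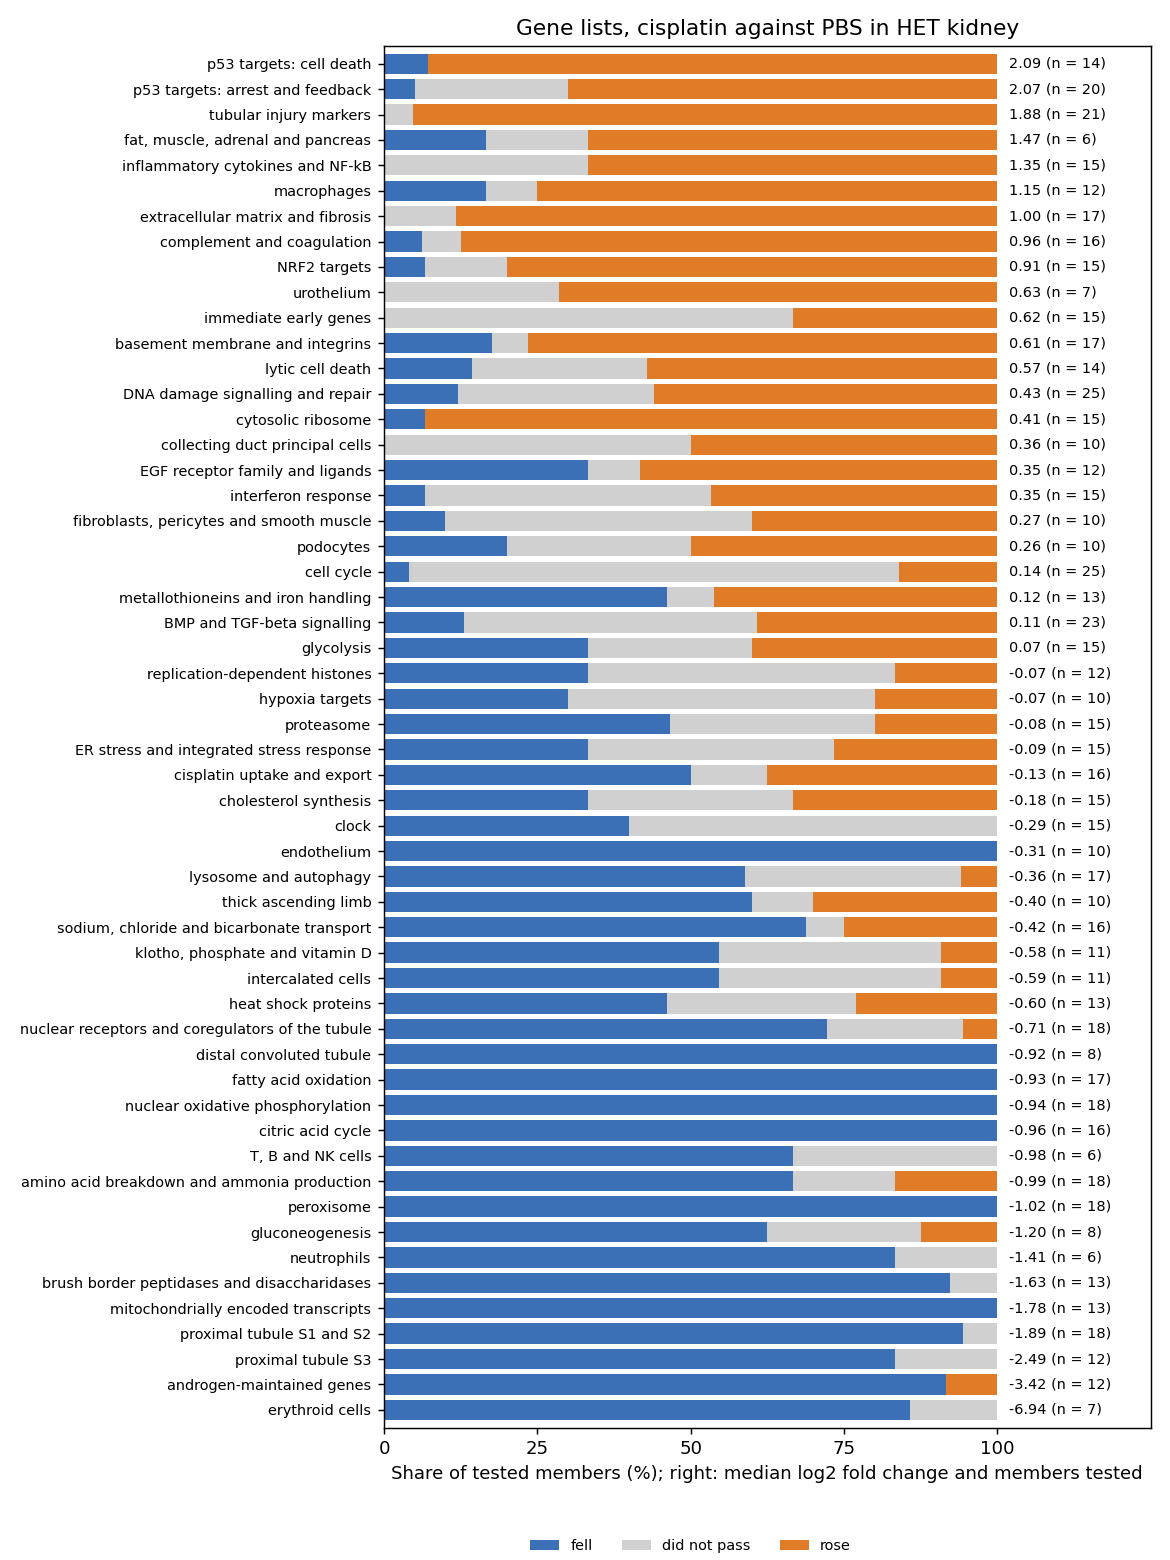
Share of the tested members of each of the 54 gene lists that rose, fell or did not pass the threshold (edgeR adjusted p of 0.05), in percent, ordered by the median log2 fold change printed at the right. Erythroid, androgen-maintained and proximal tubule lists stand at the bottom, and p53 and injury lists at the top.

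Markers of the injured tubule rose. Of 21 tested injury markers 20 rose and 0 fell, with a median log2 fold change of 1.88 against 0.059 over all genes, and 15 of them did not overlap between the groups (26.0% of all genes). Havcr1, the shed receptor measured in urine as KIM-1, read 1.03 to 4.83 CPM (median 2.24) under PBS and 31.6 to 514 CPM (median 285) under cisplatin. Every treated kidney was above every control, but the treated ones spread widely, with HET cisplatin 6 lowest at 31.6 CPM (log2 fold change 6.80, SE 0.43, adjusted p = 2.06e-14). Lcn2, the lipocalin NGAL that binds iron-carrying siderophores, read 1.64 to 5.31 CPM (median 2.16) under PBS and 81.9 to 389 CPM (median 154) under cisplatin (log2 fold change 6.05, SE 0.34, adjusted p = 1.62e-15). Krt20, a keratin normally of urothelium and gut, rose from a median of 1.08 to 91.2 CPM (range 22.9 to 282). Spp1, which encodes osteopontin, read 431 to 551 CPM (median 488) under PBS and 2349 to 5549 CPM (median 4376) under cisplatin (log2 fold change 3.11, SE 0.12, adjusted p = 1.15e-19). Prom1, a membrane protein of progenitor-like tubule cells, moved less but with little spread, at 54.5 to 70.2 CPM (median 61.8) under PBS and 128 to 172 CPM (median 154) under cisplatin. Hbegf, a ligand of the EGF receptor, did not pass: it read 14.8 to 74.9 CPM (median 31.5) under PBS and 19.0 to 69.1 CPM (median 44.1) under cisplatin, and HET PBS 1 to 3 (58.4, 74.9 and 58.0 CPM) were the highest controls.

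The largest fold changes upward belonged to genes of cornified epithelium and to genes nearly silent in the control kidney. Casp14, the caspase of keratinocyte cornification, had 0 counts in all 7 PBS libraries and 1.28 to 6.12 CPM (median 4.05) under cisplatin. Against a floor of 3 counts over the PBS group it was at least 288-fold higher. The small proline-rich genes Sprr2f and Sprr2g, which encode precursors of the cornified envelope, rose to medians of 9.0 and 9.57 CPM, and since they are near-identical copies the split of counts between them is uncertain. Sprr2f ranged from 0.769 to 85.7 CPM, with HET cisplatin 8 highest, and its log2 fold change of 9.38 became 8.39 (adjusted p = 2.17e-09) without that library. Crct1, of the same epidermal gene cluster, and Il1f6, an interleukin-1 family cytokine of epithelia, followed at 0.0961 to 4.91 CPM (median 0.696) and 0.929 to 4.41 CPM (median 1.34). Other large rises were Ano3, a scramblase of the anoctamin family, at 0 to 0.157 CPM (median 0.134) under PBS and 4.03 to 45.1 CPM (median 26.0) under cisplatin, Celf5, an RNA-binding protein mostly of brain, at 0 to 0.104 CPM (median 0.0317) under PBS and 2.05 to 11.8 CPM (median 7.58) under cisplatin, and Olfr1316, an olfactory receptor gene, at 0 to 0.0347 CPM (median 0) under PBS and 1.25 to 2.55 CPM (median 1.73) under cisplatin. These genes did not overlap between the groups, but single libraries set the size of some fold changes. Crct1 had 0 counts under PBS and, against the same floor, was at least 78.7-fold higher, or at least 44.0-fold without HET cisplatin 8. Olfr1316 had 1 count under PBS and a pooled CPM ratio of 369 (95% exact conditional interval 66.0 to 14624, counting error only). Il1f6 had 4 counts under PBS, all in HET PBS 2, and without that library it was at least 114-fold higher. Without HET PBS 4 the log2 fold change of Sprr2g was 8.84 (adjusted p = 6.14e-11), from 6.99.

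Most target genes of p53 rose. Of 20 targets that act in arrest and feedback 14 rose, 1 fell and 5 did not pass (median 2.07), and of 14 that act in cell death 13 rose and 1 fell (median 2.09), beside 31% and 28% of all genes. Ccng1, a cyclin G that feeds back on p53, read 218 to 250.3 CPM (median 238) under PBS and 1096 to 1445 CPM (median 1321) under cisplatin (log2 fold change 2.45, SE 0.066, adjusted p = 1.76e-23). Zmat3, an RNA-binding p53 effector, read 47.0 to 52.5 CPM (median 50.2) under PBS and 233 to 298 CPM (median 278) under cisplatin (log2 fold change 2.46, SE 0.06, adjusted p = 1.24e-24). The spread of either within a group was a small fraction of the step between groups. Eda2r, a death receptor of the TNF receptor family, read 0.512 to 1.33 CPM (median 0.902) under PBS and 66.4 to 133 CPM (median 114) under cisplatin (log2 fold change 6.89, SE 0.19, adjusted p = 1.76e-23). Psrc1, a spindle protein, and Zfp365, a zinc finger gene that is a p53 target, rose by log2 fold changes of 6.79 (SE 0.23) and 7.57 (SE 0.35). Phlda3, which restrains Akt, read 2.20 to 4.59 CPM (median 2.66) under PBS and 78.0 to 115 CPM (median 91.3) under cisplatin. Bax, the pore-forming protein of the mitochondrial death pathway, read 11.6 to 15.7 CPM (median 13.1) under PBS and 42.1 to 56.6 CPM (median 50.3) under cisplatin. Neither overlapped between the groups. HET cisplatin 6, the lowest treated library for Havcr1, was also the lowest for Eda2r, at 66.4 CPM against a PBS maximum of 1.33 CPM. A pair of targets went against the rest: Dram1, a lysosomal protein of autophagy, fell (log2 fold change −0.41, SE 0.13, adjusted p = 0.01, and 0.04 on the log2(TPM + 1) scale). It missed the threshold with library totals and within the animals numbered 600 to 630 at −0.39 (adjusted p = 0.068) in the latter. Rrm2b, the p53-induced ribonucleotide reductase subunit, fell too (log2 fold change −0.30, SE 0.071, adjusted p = 0.000461), but its log2 fold change was 0.11 with library totals. Rrm2b was picked after its value was seen. Zmat3, Ccng1, Eda2r and Phlda3 were among the 10 genes with the smallest p of the whole comparison.

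The promoter of the p53 target Cdkn1a, which encodes the cell cycle inhibitor p21 and was named after its value was seen (8.95 to 55.4 CPM (median 20.7) under PBS and 495 to 775 CPM (median 667) under cisplatin, log2 fold change 4.75, SE 0.41, adjusted p = 2.28e-11), is shown because it was the promoter in the p53 lists with a whole p53 site. Those of Ccng1 and Bax hold a half-site and stand for the steady rises given above. Capitals mark the letters that match the p53 site, named here by its name, on either strand. Each run is the 250 bases before a RefSeq transcription start on the build GRCm38.p6, 5′ to 3′ on the strand of the gene.
Cdkn1a (chr17:29090729-29090978, plus strand): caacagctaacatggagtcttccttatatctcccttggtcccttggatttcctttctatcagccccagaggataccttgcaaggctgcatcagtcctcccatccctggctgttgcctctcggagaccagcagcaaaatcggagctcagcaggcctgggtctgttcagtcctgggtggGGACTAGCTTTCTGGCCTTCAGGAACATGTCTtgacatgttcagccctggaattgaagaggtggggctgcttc
Ccng1 (chr11:40755287-40755536, minus strand): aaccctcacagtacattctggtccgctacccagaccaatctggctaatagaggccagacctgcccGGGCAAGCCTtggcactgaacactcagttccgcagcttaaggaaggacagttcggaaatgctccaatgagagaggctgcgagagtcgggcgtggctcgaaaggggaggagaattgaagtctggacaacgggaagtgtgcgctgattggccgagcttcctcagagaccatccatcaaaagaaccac
Bax (chr7:45466899-45467148, minus strand): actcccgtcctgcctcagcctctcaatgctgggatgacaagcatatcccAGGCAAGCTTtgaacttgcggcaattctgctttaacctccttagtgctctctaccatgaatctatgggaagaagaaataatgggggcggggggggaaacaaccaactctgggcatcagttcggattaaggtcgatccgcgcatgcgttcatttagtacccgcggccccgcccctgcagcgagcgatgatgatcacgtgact
A whole site, defined as 2 half-sites of 10 bases with 0 to 13 bases between them, was found in 1 of the 26 tested p53 list genes that have a promoter in the table, and in 0.0639% of all 32851 promoters. A half-site was found in 10 of the 26 genes (38.5%) and in 8.20% of all genes. A match describes these letters and is not evidence of binding, and no match says only that the letters are not in this window.

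DNA repair and cell cycle genes had smaller medians than p53 targets. Of 25 DNA damage and repair genes 14 rose and 3 fell (median 0.43), and with library totals 23 rose and 1 fell. Within the number range 10 rose and 2 fell. Mgmt, which removes alkyl groups from guanine, read 2.72 to 4.01 CPM (median 3.12) under PBS and 12 to 22.9 CPM (median 20.3) under cisplatin (log2 fold change 2.54, SE 0.12, adjusted p = 2.21e-17). Rev1, a scaffold of translesion synthesis past DNA adducts, rose by 1.01 (SE 0.068), and Ercc5, the nuclease that cuts on one side of an excised adduct, by 1.30 (SE 0.10). Of 25 cell cycle genes 4 rose, 1 fell and 20 did not pass (median 0.14). With library totals 12 rose and 0 fell. Rrm2, the ribonucleotide reductase subunit of S phase, read 3.69 to 5.86 CPM (median 4.13) under PBS and 4.58 to 11.5 CPM (median 9.05) under cisplatin (log2 fold change 1.02, SE 0.19, adjusted p = 1.88e-05), and the groups overlapped. Of 12 replication-dependent histone genes 2 rose and 4 fell (median −0.066, and 0.34 with library totals), beside 31% and 28% of all genes.

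Genes of the proximal tubule fell. Of 18 genes of the first segments (S1 and S2) 17 fell, 10 of 12 genes of the straight S3 segment fell, and of 13 brush border peptidases and disaccharidases 12 fell, and none of them rose, against 28% of all genes that fell. The medians were −1.89, −2.49 and −1.63. Lrp2, the endocytic receptor megalin, read 6019 to 7439.6 CPM (median 6899.9) under PBS and 489.6 to 2684 CPM (median 1603) under cisplatin (log2 fold change −2.08, SE 0.26, adjusted p = 3.35e-08). The deepest loss was in HET cisplatin 8 (489.6 CPM) and the mildest in HET cisplatin 6 (2684 CPM), both outside the PBS range. Cyp2e1, a cytochrome P450 of S1 and S2, read 1334 to 1665 CPM (median 1506) under PBS and 26.3 to 186 CPM (median 59.1) under cisplatin (log2 fold change −4.29, SE 0.37, adjusted p = 2.62e-11). Slc34a3, a sodium-phosphate cotransporter, read 28.7 to 36.7 CPM (median 34.6) under PBS and 0.218 to 6.82 CPM (median 1.91) under cisplatin (log2 fold change −3.88, SE 0.40, adjusted p = 1.01e-09). Among S3 genes Slc7a13, a cystine and glutamate transporter, read 915 to 1099.7 CPM (median 950.1) under PBS and 1.83 to 14.2 CPM (median 4.86) under cisplatin (log2 fold change −7.40, SE 0.62, adjusted p = 1.37e-11), and Slc22a7, an organic anion transporter, 175 to 230.1 CPM (median 197) under PBS and 0.920 to 4.71 CPM (median 2.90) under cisplatin (log2 fold change −6.15, SE 0.21, adjusted p = 4.75e-21). Ace, the angiotensin-converting enzyme of the brush border, read 336 to 439 CPM (median 391) under PBS and 21.1 to 43.8 CPM (median 35.8) under cisplatin (log2 fold change −3.52, SE 0.23, adjusted p = 3.97e-14). Not all of the segment moved: Slc5a1, the glucose transporter SGLT1 of S3, read 66.5 to 84.3 CPM (median 75.1) under PBS and 46.8 to 109 CPM (median 73.7) under cisplatin, Serpina1f 92.9 to 119 CPM (median 103) under PBS and 60.9 to 109.6 CPM (median 91.3) under cisplatin, and the peptidase Dpp4 68.7 to 87.1 CPM (median 75.6) under PBS and 57.0 to 88.4 CPM (median 79.0) under cisplatin, and none of the 3 passed. Of 11 genes of phosphate handling, klotho and vitamin D 6 fell and 1 rose (5 and 3 with library totals, 5 and 3 within the number range), among the falls Kl itself, the co-receptor of FGF23, at 818 to 1065 CPM (median 955) under PBS and 82.9 to 382 CPM (median 223) under cisplatin, and Pth1r, the receptor of parathyroid hormone (−2.10 and −2.10 as log2 fold changes).

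**Figure D3:**
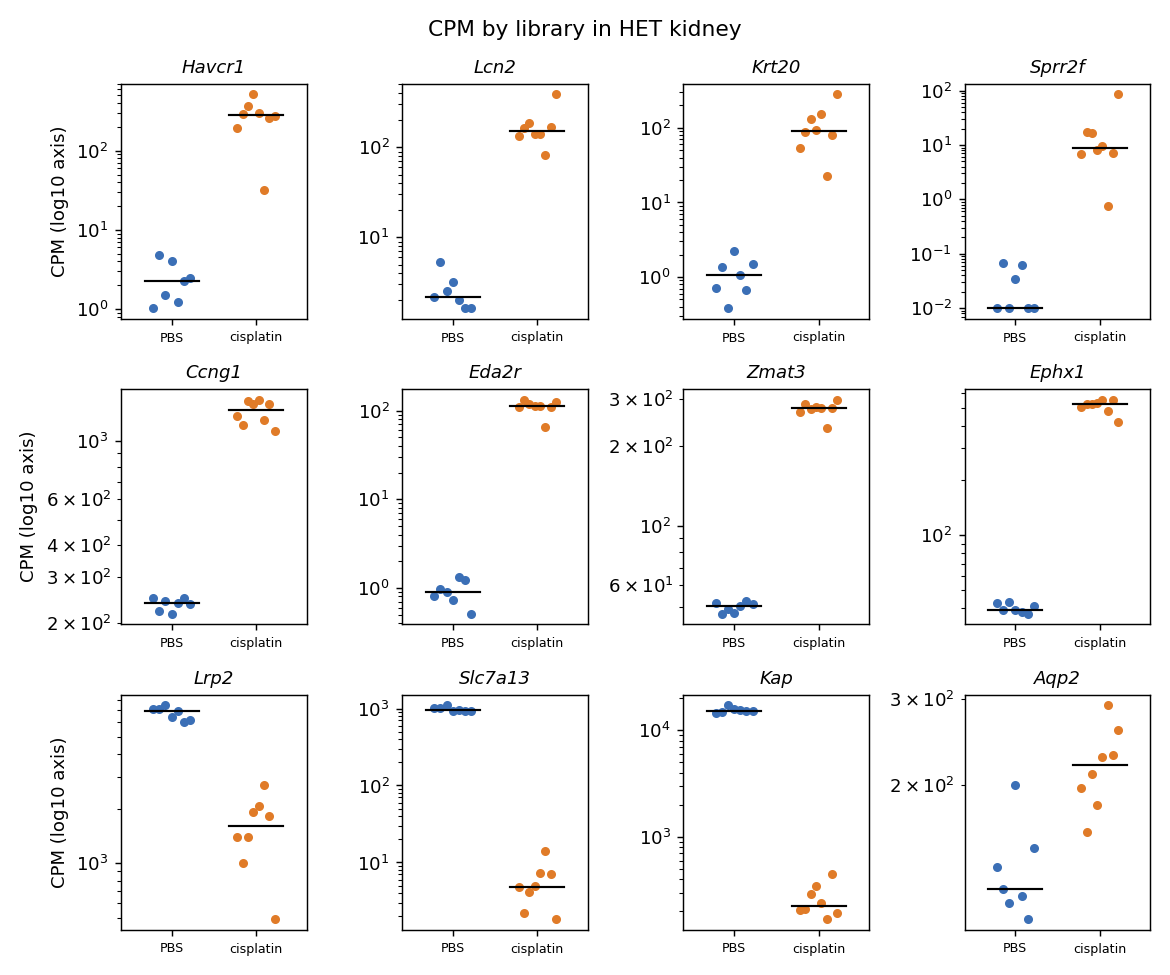
CPM of 12 genes in every HET library on a log10 axis, PBS in blue and cisplatin in orange, each point 1 library and each bar a group median. Havcr1 to Ephx1 are higher in every treated library, Lrp2, Slc7a13 and Kap lower, and Aqp2 overlaps between the groups. A value of 0 is drawn at 0.01.

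Large losses were also seen in genes whose expression in male kidney depends on androgens. Of 12 genes listed as such 11 fell and 1 rose, with a median of −3.42. Kap, the kidney androgen-regulated protein, read 14659.9 to 17166 CPM (median 15298) under PBS and 169 to 452 CPM (median 225) under cisplatin (log2 fold change −5.88, SE 0.19, adjusted p = 1.93e-21). Slco1a1, an organic anion transporter of the apical membrane, read 445 to 757 CPM (median 547) under PBS and 0.298 to 5.44 CPM (median 2.23) under cisplatin, and Cyp4b1, a monooxygenase, 2821 to 3336 CPM (median 3063) under PBS and 106 to 446 CPM (median 224) under cisplatin. The listed gene that rose was Slc7a12, an amino acid transporter. It read 1.69 to 4.44 CPM (median 2.06) under PBS and 17.5 to 43.7 CPM (median 36.0) under cisplatin (log2 fold change 3.75, SE 0.39, edgeR adjusted p = 1.24e-09). Slc7a12 is higher in female than in male mouse kidney, so it is a doubtful member of a list of genes maintained by androgens. Pzp, a protease inhibitor of the alpha-macroglobulin family, read 148 to 237 CPM (median 194) under PBS and 0 to 0.737 CPM (median 0.241) under cisplatin (log2 fold change −9.30, SE 0.39, adjusted p = 1.01e-18). Of 18 nuclear receptors and regulators of tubule identity 13 fell and 1 rose (median −0.71), and with library totals 10 and 4. Vdr, the vitamin D receptor, read 286 to 371 CPM (median 345) under PBS and 126 to 193 CPM (median 168) under cisplatin (log2 fold change −1.0, SE 0.10, adjusted p = 1.05e-09).

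Further along the nephron the changes were smaller and mixed. In the thick ascending limb 6 of 10 genes fell and 3 rose (with library totals 3 and 4, and 4 and 2 within the number range). Egf, whose product is released into urine by this segment, read 2095 to 2349 CPM (median 2187) under PBS and 52.1 to 400.4 CPM (median 177) under cisplatin (log2 fold change −3.62, SE 0.35, adjusted p = 2.26e-10), and Umod, uromodulin, 2876 to 3327 CPM (median 3044) under PBS and 354 to 1794 CPM (median 1126) under cisplatin. Cldn19, a tight junction protein for magnesium and calcium, rose instead, at 18.6 to 28 CPM (median 23.8) under PBS and 39.9 to 63.9 CPM (median 51.4) under cisplatin. In the distal convoluted tubule all 8 listed genes fell (5 with library totals), down to Pvalb, a calcium-binding protein, at 6.96 to 12.5 CPM (median 9.25) under PBS and 0 to 0.538 CPM (median 0.0431) under cisplatin (log2 fold change −6.27). Without HET cisplatin 5 its log2 fold change was −7.08 (adjusted p = 3.76e-12). Principal cells of the collecting duct did not share the losses: 5 of 10 genes rose and 0 fell (10 and 0 with library totals). Aqp2, their water channel, read 106 to 200.1 CPM (median 123) under PBS and 161 to 291 CPM (median 219.8) under cisplatin (log2 fold change 0.70, SE 0.14, adjusted p = 5.68e-05), with overlapping groups. Of 11 intercalated cell genes 6 fell and 1 rose, but with library totals 3 fell and 4 rose. Slc26a4, the chloride-bicarbonate exchanger pendrin, read 42.8 to 64.7 CPM (median 55.2) under PBS and 18.8 to 37.2 CPM (median 29.3) under cisplatin (log2 fold change −0.98, SE 0.12, adjusted p = 1.96e-08). Of 16 sodium, chloride and bicarbonate transport genes 11 fell and 4 rose (7 and 5 with library totals), with Fxyd2, a regulator of the sodium pump, at 993 to 1093 CPM (median 1038) under PBS and 366 to 610 CPM (median 502) under cisplatin (log2 fold change −1.05, SE 0.081, adjusted p = 2.05e-12). In the glomerulus 5 of 10 podocyte genes rose and 2 fell (8 and 0 with library totals, and 5 and 0 within the animals numbered 600 to 630), and Wt1, their transcription factor, read 8.88 to 12.9 CPM (median 10.4) under PBS and 17.4 to 19.8 CPM (median 17.7) under cisplatin (log2 fold change 0.76, SE 0.077, adjusted p = 6.66e-10).

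The listed genes of energy metabolism fell together. Every member fell in the lists of 13 mitochondrially encoded transcripts, 18 nuclear genes of oxidative phosphorylation and 17 genes of fatty acid oxidation. So did the 18 listed peroxisomal genes and the 16 listed genes of the citric acid cycle. The medians, in that order, were −1.78, −0.94, −0.93, −1.02 and −0.96. With library totals 12, 17, 14, 14 and 14 of them still fell, and 1 peroxisomal gene rose. mt-Nd4, a subunit of complex I, read 11294 to 12934 CPM (median 12707) under PBS and 1939 to 4528 CPM (median 3163) under cisplatin (log2 fold change −2.0, SE 0.17, adjusted p = 1.15e-11). Ndufs1, the nuclear subunit of the same complex that takes electrons from NADH, read 281 to 312 CPM (median 291) under PBS and 73.8 to 128 CPM (median 109.6) under cisplatin (log2 fold change −1.45, SE 0.12, adjusted p = 5.87e-12). Acads, the short-chain acyl-CoA dehydrogenase, read 144 to 166 CPM (median 153) under PBS and 35.2 to 56.0 CPM (median 43.6) under cisplatin (log2 fold change −1.82, SE 0.10, adjusted p = 1.28e-15), and Amacr, the racemase that lets branched fatty acids enter peroxisomal oxidation, 193 to 277 CPM (median 224) under PBS and 17.6 to 42.0 CPM (median 22.7) under cisplatin (log2 fold change −3.20, SE 0.17, adjusted p = 6.58e-16). Dld, the shared E3 subunit of the 2-oxoacid dehydrogenases, read 291 to 331 CPM (median 306) under PBS and 112 to 169.7 CPM (median 136) under cisplatin (log2 fold change −1.17, SE 0.09, adjusted p = 1.73e-12). In each of these genes the groups did not overlap. Acsm2, a medium-chain acyl-CoA synthetase of the proximal tubule, read 4317 to 5227 CPM (median 4678) under PBS and 96.5 to 398 CPM (median 223) under cisplatin (log2 fold change −4.41, SE 0.31, adjusted p = 1.85e-13). Glucose metabolism split: 5 of 8 genes of gluconeogenesis fell and 1 rose (5 and 3 with library totals), with G6pc, the glucose-6-phosphatase, at 475 to 1324 CPM (median 634) under PBS and 18.7 to 147 CPM (median 93.4) under cisplatin (log2 fold change −3.10, SE 0.35, adjusted p = 5.36e-09), while 6 of 15 glycolysis genes rose and 5 fell. Hk2, the inducible hexokinase, read 1.27 to 4.15 CPM (median 2.37) under PBS and 4.74 to 33.9 CPM (median 28.4) under cisplatin (log2 fold change 3.25, SE 0.33, adjusted p = 7.07e-10), and Pkm, pyruvate kinase, rose by 0.67 (SE 0.077), while Pgk1, a kinase of the same pathway, had −0.84 (SE 0.082). With library totals 10 glycolysis genes rose and 3 fell. Their counts under TMM stand beside 31% of all genes that rose and 28% that fell. Amino acid breakdown lost 12 of 18 genes. Of 15 cholesterol synthesis genes 5 rose and 5 fell, beside 31% and 28% of all genes. The median was −0.18, and 0.22 with library totals, and within the number range 2 rose and 5 fell. Cyp51, the lanosterol demethylase, read 229 to 386 CPM (median 270.1) under PBS and 26.3 to 64.8 CPM (median 37.4) under cisplatin (log2 fold change −2.74, SE 0.25, adjusted p = 8.69e-11).

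Some detoxifying enzymes rose. Ephx1, the microsomal epoxide hydrolase, had the smallest p of all genes: it read 37.2 to 42.9 CPM (median 39.1) under PBS and 419 to 553 CPM (median 527) under cisplatin (log2 fold change 3.68, SE 0.066, adjusted p = 2.64e-28). Gsta1, a glutathione transferase, read 0.0676 to 0.868 CPM (median 0.334) under PBS and 80.9 to 166 CPM (median 105) under cisplatin (log2 fold change 8.18, SE 0.31, adjusted p = 8.98e-20), with reads that it may share with its near copy Gsta2, and Ugt2b35, a glucuronosyltransferase, read 0 to 0.10 CPM (median 0) under PBS and 5.82 to 23.7 CPM (median 12.6) under cisplatin. Ugt2b35 had 4 counts under PBS and a pooled CPM ratio of 704 (95% exact conditional interval 275 to 2586, counting error only), and without HET PBS 6, which held 3 of them, 2400.1 (431 to 94824). Of 15 targets of NRF2, the transcription factor of the oxidant response, 12 rose, 1 fell and 2 did not pass (median 0.91). Nqo1, the quinone reductase, read 45.7 to 70.2 CPM (median 62.5) under PBS and 162 to 274 CPM (median 199) under cisplatin (log2 fold change 1.80, SE 0.15, adjusted p = 6.68e-12), and G6pdx, which supplies NADPH, 30.3 to 36.8 CPM (median 33.2) under PBS and 58.8 to 98.6 CPM (median 83.1) under cisplatin (log2 fold change 1.26, SE 0.11, adjusted p = 6.69e-11). Gclm, the modifier subunit of glutathione synthesis, went the other way. It read 354 to 454 CPM (median 419) under PBS and 216 to 312 CPM (median 270.1) under cisplatin. Its log2 fold change was −0.65 (SE 0.10, edgeR adjusted p = 1.18e-06), but 0.05 on the log2(TPM + 1) scale. Hmox1, heme oxygenase 1, did not pass, at 33.4 to 942 CPM (median 306) under PBS and 30.3 to 427 CPM (median 87.8) under cisplatin. It had a log2 fold change of −1.33 (adjusted p = 0.108), which was −1.82 (adjusted p = 0.0308) without HET cisplatin 6 and −2.05 (adjusted p = 0.00939) within the animals numbered 600 to 630.

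The promoters of G6pdx, which rose, and of Gclm, which fell, are shown because both hold the core of the antioxidant response element, TGACNNNGC on either strand, marked in capitals.
G6pdx (chrX:74428881-74429130, minus strand): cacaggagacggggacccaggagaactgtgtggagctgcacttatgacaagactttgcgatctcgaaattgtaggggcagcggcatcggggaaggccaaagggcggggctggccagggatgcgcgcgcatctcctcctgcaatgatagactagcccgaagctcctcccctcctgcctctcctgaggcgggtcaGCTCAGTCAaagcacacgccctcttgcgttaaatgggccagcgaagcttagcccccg
Gclm (chr3:122245307-122245556, plus strand): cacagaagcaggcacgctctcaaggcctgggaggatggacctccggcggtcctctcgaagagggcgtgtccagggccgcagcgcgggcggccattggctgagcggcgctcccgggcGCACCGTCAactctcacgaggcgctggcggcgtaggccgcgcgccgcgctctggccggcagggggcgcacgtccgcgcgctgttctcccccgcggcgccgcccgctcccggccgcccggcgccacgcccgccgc
The core was found in 3 of the 13 tested NRF2 list genes with a promoter in the table (23.1%) and in 11.5% of all genes. Of the 3 list genes with the core G6pdx and Txnrd1 rose and Gclm fell.

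Carriers of the drug changed in both directions. Of 16 genes of cisplatin uptake, storage and export 6 rose and 8 fell (with library totals 9 and 5, and 4 and 8 within the number range). Abcb1b, a P-glycoprotein export pump, read 5.61 to 9.69 CPM (median 7.07) under PBS and 55.1 to 144 CPM (median 92.5) under cisplatin (log2 fold change 3.69, SE 0.17, adjusted p = 9.47e-18). Slc31a1, the copper transporter CTR1, read 187 to 224 CPM (median 204) under PBS and 79.6 to 116 CPM (median 97.0) under cisplatin (log2 fold change −1.08, SE 0.082, adjusted p = 1.47e-12), and Slc47a1, the apical exporter MATE1, 512 to 563 CPM (median 529) under PBS and 116 to 213 CPM (median 169.5) under cisplatin (log2 fold change −1.69, SE 0.15, adjusted p = 4.8e-11). Metal handling split as well, 6 up and 6 down of 13 (7 and 3 with library totals). Cp, ceruloplasmin, read 46.9 to 62.5 CPM (median 57.3) under PBS and 249 to 507 CPM (median 385) under cisplatin (log2 fold change 2.81, SE 0.13, adjusted p = 1.41e-17), and Aco1, the iron-regulatory cytosolic aconitase, had a log2 fold change of −1.03 (SE 0.10).

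Inflammatory and complement genes rose, whereas no lymphocyte or neutrophil marker did. In the cytokine and NF-kB list 10 of 15 genes rose and 0 fell (median 1.35). Of 16 complement and coagulation genes 14 rose and 1 fell (median 0.96). In these lists 3 and 7 genes did not overlap between the groups, in that order, against 26.0% of all genes. C3, the central complement component, read 19.2 to 37.5 CPM (median 28.6) under PBS and 553 to 942 CPM (median 885) under cisplatin (log2 fold change 4.84, SE 0.20, adjusted p = 5.29e-19), and Fgb, a fibrinogen chain, 0.811 to 2.05 CPM (median 1.46) under PBS and 6.01 to 16.6 CPM (median 7.79) under cisplatin (log2 fold change 2.67, SE 0.24, adjusted p = 4.2e-11). Lif, a cytokine of the interleukin-6 family, read 0.167 to 1.72 CPM (median 0.674) under PBS and 12.4 to 30.6 CPM (median 20.2) under cisplatin (log2 fold change 4.85, SE 0.41, adjusted p = 1.2e-11), and Icam1, an adhesion molecule for leukocytes, from at most 30.7 CPM to 41.2 to 88.2 CPM (median 74.5). Cfb, factor B of the alternative pathway, fell instead, at 363 to 422 CPM (median 380.0) under PBS and 108 to 243 CPM (median 179.7) under cisplatin. Of 15 interferon response genes 7 rose and 1 fell (12 and 0 with library totals), with Ifit3, an antiviral effector, at 14.4 to 18.1 CPM (median 16.6) under PBS and 21.8 to 39.6 CPM (median 29.0) under cisplatin. Macrophage markers rose in 9 of 12 and fell in 2: Itgam, the integrin CD11b, read 0.824 to 4.51 CPM (median 2.04) under PBS and 1.22 to 14.7 CPM (median 11.5) under cisplatin (log2 fold change 2.20, SE 0.36, adjusted p = 4.32e-06), while Csf1r, the receptor of macrophage growth factor, read 48.1 to 59.3 CPM (median 53.6) under PBS and 20.7 to 39.3 CPM (median 30.4) under cisplatin (log2 fold change −0.84, SE 0.10, adjusted p = 1.67e-08) and Cd74, the invariant chain of class II antigen presentation, 101 to 138 CPM (median 119.7) under PBS and 19.2 to 78.2 CPM (median 44.2) under cisplatin. The summed level of the 12 macrophage markers was 212 to 279 CPM under PBS and 70.6 to 332 CPM under cisplatin. Only 2 of the markers, the falling Csf1r and Cd74, did not overlap between the groups. Of 6 tested T, B and NK cell markers 4 fell, and of 6 neutrophil markers 5 fell, all at low levels. With library totals 2 and 0 of them fell, and without the 4 libraries low in Nbl1 2 neutrophil markers fell. The T cell receptor subunit Cd3e read 0.354 to 1.08 CPM (median 0.497) under PBS and 0.0271 to 0.336 CPM (median 0.0932) under cisplatin (log2 fold change −2.18, SE 0.45, adjusted p = 0.00012). Within the animals numbered 600 to 630, 1 neutrophil marker fell, and S100a9, a calprotectin subunit, lost its call without HET PBS 1 or HET PBS 3, with log2 fold changes of −1.45 (adjusted p = 0.0722) and −1.36 (adjusted p = 0.0894).

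Red cell transcripts were nearly lost. Of 7 tested erythroid genes 6 fell (median −6.94), and the summed level of the list was 361 to 796 CPM under PBS and 2.83 to 81.3 CPM under cisplatin. Slc4a1, among the 6 falls, is also counted with the intercalated cell genes above. The count and the sum thus do not stand for red cells alone. The globin gene Hbb-bs read 151 to 355 CPM (median 271) under PBS and 0 to 9.93 CPM (median 0.0631) under cisplatin (log2 fold change −7.67, SE 1.04, adjusted p = 1.69e-07), and Alas2, the heme synthesis enzyme of erythroid cells, 4.70 to 9.51 CPM (median 8.08) under PBS and 0 to 0.224 CPM (median 0.0316) under cisplatin (log2 fold change −6.58, SE 0.53, adjusted p = 6.17e-12). HET cisplatin 6 held 9.93 CPM of Hbb-bs and 9.16 CPM of Hba-a2, against at most 0.269 and 0.269 CPM in any other treated library. Without it the log2 fold changes were −11.59 (adjusted p = 1.4e-10) for Hbb-bs, −11.33 (adjusted p = 1.41e-11) for Hba-a2, −10.74 (adjusted p = 3.84e-12) for Hba-a1 and −10.27 (adjusted p = 8.31e-12) for Hbb-bt, from −7.67, −6.94, −7.21 and −8.74 with it. Globin genes are near-identical copies, so the split of counts between Hba-a1 and Hba-a2 and between the Hbb genes is uncertain. How much blood each kidney held was not tested.

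Most listed matrix genes rose, while the fall of the listed endothelial genes rested on the scaling. Of 17 genes of extracellular matrix and fibrosis 15 rose and 0 fell (median 1.0). Only 1 of them did not overlap between the groups, against 26.0% of all genes. Col6a1, a collagen VI chain, read 18.7 to 30.4 CPM (median 21.5) under PBS and 25 to 99.1 CPM (median 82.1) under cisplatin (log2 fold change 1.72, SE 0.18, adjusted p = 1.52e-09), and Timp1, an inhibitor of matrix proteases, 0.158 to 0.694 CPM (median 0.393) under PBS and 0.352 to 7.74 CPM (median 5.25) under cisplatin (log2 fold change 3.47, SE 0.38, adjusted p = 2.65e-09). The lowest treated value of both was in HET cisplatin 6. Laminin and integrin genes rose in 13 of 17 and fell in 3, with Itgb4, the integrin of hemidesmosomes, at 5.11 to 7.29 CPM (median 6.35) under PBS and 16.7 to 92.8 CPM (median 60.9) under cisplatin (log2 fold change 3.29, SE 0.26, adjusted p = 3.48e-12). Lama3, a laminin chain, fell (log2 fold change −1.25, SE 0.10, adjusted p = 3.38e-12). Of 10 fibroblast, pericyte and smooth muscle genes 4 rose and 1 fell, the fall being Ren1, renin, at 29.1 to 46.2 CPM (median 34.8) under PBS and 12.6 to 22.1 CPM (median 16.2) under cisplatin. With library totals 8 of these genes rose, and within the number range 2. All 10 listed endothelial genes fell under TMM scaling (median −0.31), but with library totals 4 rose and 2 fell, and within the number range 7 fell. Kdr, the VEGF receptor 2, read 106 to 141 CPM (median 117) under PBS and 51.0 to 69.1 CPM (median 59.8) under cisplatin (log2 fold change −1.0, SE 0.084, adjusted p = 1.53e-11), and its ligand gene Vegfa 150.4 to 223 CPM (median 209) under PBS and 82.8 to 152 CPM (median 111) under cisplatin (log2 fold change −0.83, SE 0.11, adjusted p = 1.78e-07).

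Ligands of the EGF receptor family went in both directions. Of 12 genes of the EGF receptor family 7 rose and 4 fell (8 and 2 with library totals). The ligands Nrg1, neuregulin 1, and Tgfa, transforming growth factor alpha, read 22.7 to 48.3 CPM (median 34.6) under PBS and 166 to 225 CPM (median 195) under cisplatin and 6.32 to 9.33 CPM (median 8.22) under PBS and 13.2 to 34.4 CPM (median 29.1) under cisplatin, while Egf fell as given above. In the BMP and TGF-beta list, which holds Nbl1, 9 of 23 genes rose, 3 fell and 11 did not pass. Of all genes 31% rose and 28% fell, and the list median was 0.11 against 0.059 over all genes. With library totals 18 of the list rose and 2 fell, and within the number range 9 and 5. Grem1, another secreted BMP antagonist, read 0.312 to 1.96 CPM (median 0.630) under PBS and 3.71 to 39.7 CPM (median 8.10) under cisplatin (log2 fold change 3.71, SE 0.55, adjusted p = 8.75e-07). Inhba, the activin A subunit, read 0.401 to 1.76 CPM (median 0.729) under PBS and 1.83 to 8.66 CPM (median 3.59) under cisplatin (log2 fold change 2.02, SE 0.31, adjusted p = 1.49e-06), and Bmp6 44.8 to 74.3 CPM (median 54.0) under PBS and 83.6 to 101 CPM (median 88.1) under cisplatin (log2 fold change 0.62, SE 0.10, adjusted p = 2.43e-06).

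Housekeeping and organelle genes moved by small steps. Of 15 cytosolic ribosomal protein genes, which have many processed pseudogenes that can take reads, 14 rose and 1 fell (median 0.41), and Rps18 read 144 to 160.2 CPM (median 151) under PBS and 209 to 245 CPM (median 219) under cisplatin (log2 fold change 0.55, SE 0.042, adjusted p = 1.79e-12). The exception, Rpl3, fell under TMM scaling (log2 fold change −0.24) and had a log2 fold change of 0.16 with library totals. The proteasome split into 3 rises and 7 falls of 15 (with library totals 12 and 0). The rises were Psme1, an activator subunit, at 30.1 to 35.7 CPM (median 32.0) under PBS and 40.7 to 49.4 CPM (median 45.5) under cisplatin, and the immunoproteasome subunits Psmb8 and Psmb10, the last 2 picked after their values were seen. Lysosome and autophagy genes fell in 10 of 17 and rose in 1 (with library totals 5 and 6), the rise being the protease cathepsin D gene Ctsd (468 to 518 CPM (median 499.7) under PBS and 859 to 1507 CPM (median 1318) under cisplatin, log2 fold change 1.37, SE 0.10, adjusted p = 1.26e-12). Of 14 genes of lytic cell death 8 rose and 2 fell (12 and 0 with library totals), with Mlkl, the necroptosis effector, at 0.824 to 1.66 CPM (median 1.17) under PBS and 2.02 to 4.90 CPM (median 3.86) under cisplatin (log2 fold change 1.66, SE 0.19, adjusted p = 6.51e-09). Of 10 hypoxia targets 2 rose and 3 fell (median −0.072), beside 31% and 28% of all genes. With library totals 6 of them rose and 3 fell, with a median of 0.32.

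Counts of immediate early and clock genes differed with the PBS animals taken as controls. In a fit over all libraries with the number range as an added term, 2 genes differed by range (edgeR adjusted p of 0.05), among them Cry1, a clock repressor, at a log2 difference, inside minus outside, of 0.80 (adjusted p = 0.00694), picked after its value was seen. Fosb (adjusted p = 0.988), Atf3 (0.992), Egr1 (0.896), Fos (0.831), Arntl (0.343) and Dbp (0.183) did not pass there. Of 15 immediate early genes, transcription factors induced within minutes of a stimulus, 5 rose and 0 fell against all 7 PBS kidneys, but 12 rose within the animals numbered 600 to 630 and 3 without the 4 libraries low in Nbl1. Fosb read 75.4 to 182 CPM in HET PBS 1 to 3, 0.118 to 1.28 CPM in HET PBS 4 to 7 and 0.865 to 71.8 CPM under cisplatin. Atf3 read 23.3 to 79.8, 0.669 to 1.60 and 4.68 to 91.1 CPM in the same order, and Egr1 68.5 to 695, 4.13 to 77.7 and 22.7 to 274 CPM. The 3 PBS kidneys outside the number range were thus as high as treated ones or higher. Fosb changed from a log2 fold change of −0.75 (adjusted p = 0.589) to 5.27 (adjusted p = 0.00543) within the range, Atf3 from 0.91 (adjusted p = 0.409) to 4.95 (adjusted p = 0.0011), Egr1 from −0.43 (adjusted p = 0.717) to 2.37 (adjusted p = 0.0633) and Fos from −0.22 (adjusted p = 0.878) to 3.94 (adjusted p = 0.0233). Fosl1, an AP-1 subunit, rose either way, with 0.0334 to 0.507 CPM (median 0.243) under PBS and 1.22 to 31.5 CPM (median 17.5) under cisplatin (log2 fold change 6.09, SE 0.74, adjusted p = 2.25e-08). The 4 genes before it, and the 2 clock genes below, were picked after their values were seen.

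**Figure D4:**
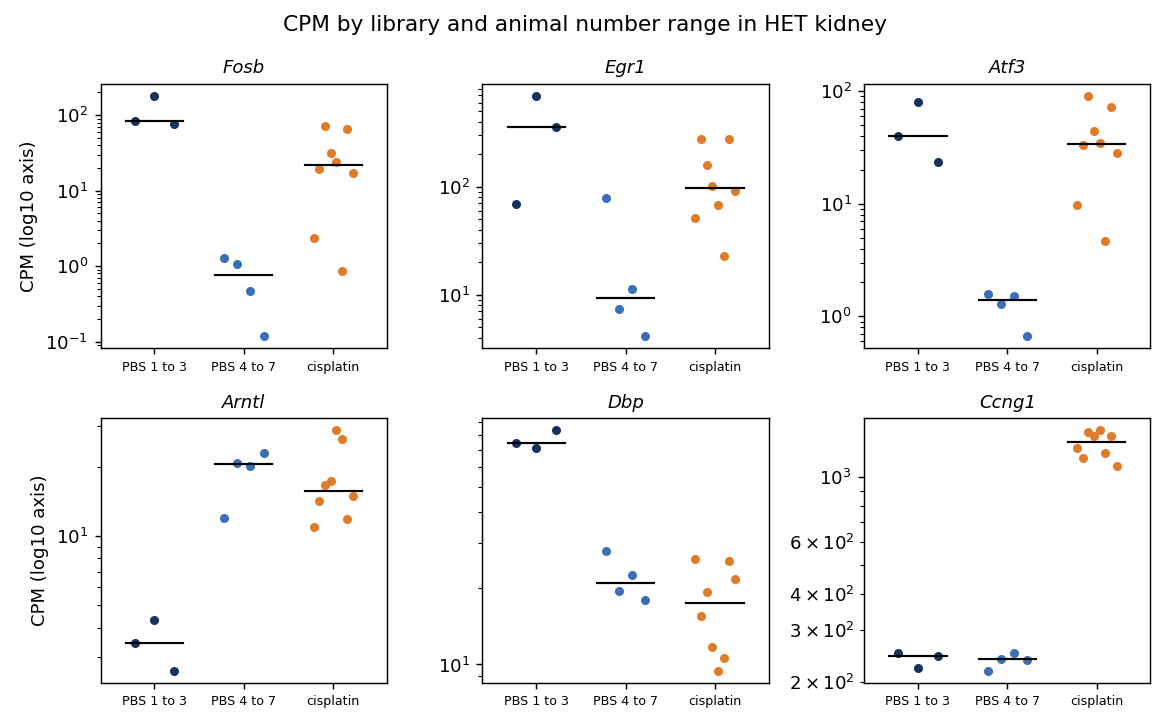
CPM of 6 genes on a log10 axis in HET PBS 1 to 3 (outside the number range 600 to 630), HET PBS 4 to 7 (inside it) and the 8 cisplatin libraries (all inside), each point 1 library. Every value of Fosb, Atf3 and Dbp is higher in PBS 1 to 3 than in PBS 4 to 7 and every value of Arntl lower, while Egr1 overlaps between them.

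Arntl, the clock activator BMAL1, read 2.60 to 4.33 CPM in HET PBS 1 to 3, 11.9 to 22.9 CPM in HET PBS 4 to 7 and 10.9 to 28.7 CPM under cisplatin, and Dbp, a clock output, 71.3 to 83.4, 18.0 to 28.1 and 9.44 to 25.9 CPM. Of 15 clock genes 6 fell and 0 rose, and within the number range 2 fell. With library totals 4 fell and 5 rose. Dbp had a log2 fold change of −1.37 (adjusted p = 0.000522) against all PBS kidneys and −0.33 (adjusted p = 0.371) within the range, and Arntl 0.52 (adjusted p = 0.257) and −0.11 (adjusted p = 0.824). Tef, a further clock output, fell either way, by −0.91 (adjusted p = 9.21e-09) and −0.78 (adjusted p = 3.42e-05). Heat shock genes fell in 6 of 13 and rose in 3, with a median of −0.60 that was −0.11 within the range. With library totals 4 of them fell and 5 rose. Hsph1, a co-chaperone, read 131 to 413 CPM (median 229.9) under PBS and 53.1 to 86.9 CPM (median 70.0) under cisplatin, with a log2 fold change of −1.90 (adjusted p = 2.99e-09) and −1.70 (adjusted p = 1.7e-06) within the range. Genes of endoplasmic reticulum stress fell in 5 of 15 and rose in 4 (median −0.092), beside 28% and 31% of all genes. With library totals 1 of them fell and 5 rose (median 0.30). Whether the hour or the handling at collection differed by number range was not tested.

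Of 14 markers of fat, muscle, adrenal and pancreas 6 were tested, of which 4 rose and 1 fell. Star, which brings cholesterol to steroid synthesis, passed with a log2 fold change of 4.23 (adjusted p = 0.000404), but 1 library carried it: HET cisplatin 4 held 205 CPM, the other 14 between 0.984 and 2.11 CPM, and without it the log2 fold change was 0.18 (adjusted p = 0.439). Adipoq, the adiponectin gene of fat cells, read 0.200 to 5.45 CPM (median 2.54) under PBS and 1.24 to 17.5 CPM (median 9.44) under cisplatin (log2 fold change 1.68, SE 0.60, edgeR adjusted p = 0.0173). Its log2 fold change was 1.52 (adjusted p = 0.0689) within the number range and 1.18 (adjusted p = 0.15) without the 4 libraries low in Nbl1. Of 7 urothelium markers 5 rose and 0 fell, against 3 rises within the number range and 1 without the 4 libraries low in Nbl1, with Upk3b, a uroplakin, at 1.97 to 2.97 CPM (median 2.70) under PBS and 3.62 to 6.73 CPM (median 5.11) under cisplatin (log2 fold change 0.98, SE 0.15, adjusted p = 1.94e-06). The urothelial summed level was 11.6 to 16.7 CPM under PBS and 12.7 to 29.1 CPM under cisplatin. The part of adhering tissue in the other results was not tested.

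The difference between the HET and the WT response was then tested in the same model. With edgeR 0 genes passed an adjusted p of 0.05 (0% of those tested), and 1079 had an unadjusted p under 0.05, beside 963.4 for 0.05 of the genes tested. DESeq2 and limma voom also called 0 genes, with 1124 and 2281 at an unadjusted p under 0.05. The smallest adjusted p was 0.725. A 95% interval of the difference had a median half-width of 0.366 on the log2 scale, and was under 1 for 87.9% of the genes, so for the other genes a 2-fold difference between the responses was within the error. Among the 5 smallest p-values, Cxcl17, a mucosal chemokine, had log2 fold changes of 4.53 in HET and 9.19 in WT. Its log2 difference, HET minus WT, was −4.66 (95% interval −6.78 to −2.54, edgeR adjusted p = 0.725). Tacc2, a centrosomal protein, had −0.44 (95% interval −0.65 to −0.23, adjusted p = 0.725) and Dchs1, an atypical cadherin, 0.49 (95% interval 0.25 to 0.74, adjusted p = 0.725). For Nbl1 the difference was −0.27 (95% interval −1.52 to 0.98, adjusted p = 0.974). Of the 11374 genes called in HET 11252 had the same sign of the fold change in WT and 122 the other. Across the 19268 genes the log2 fold changes of HET and WT had a Pearson correlation of 0.947, with no library in common. Genes are not independent.

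**Figure D5:**
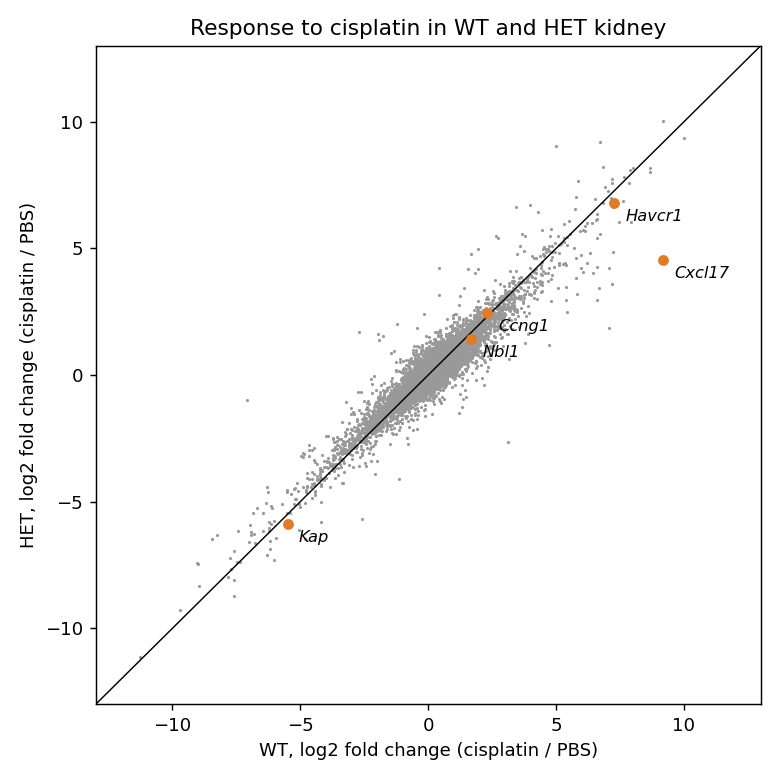
Log2 fold change, cisplatin against PBS, of each of the 19268 tested genes in WT (horizontal) and HET (vertical), with the line of equal response. Genes lie along the line (Pearson correlation across genes 0.947), and Nbl1, Havcr1, Ccng1, Kap and Cxcl17 are marked.

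The treated kidneys differed more among themselves than the controls. The median SD of log2 CPM was 0.203 over the PBS libraries and 0.262 over the cisplatin libraries, and 63.8% of the genes had the larger SD under cisplatin. The same libraries made the ends of several ranges. HET cisplatin 6 had the lowest Havcr1 (31.6 CPM), Krt20 (22.9 CPM) and Eda2r (66.4 CPM) and the highest Lrp2 (2684 CPM). HET cisplatin 8 had the lowest Lrp2 (489.6 CPM) and the highest Sprr2f, Lcn2 and Krt20 (85.7, 389 and 282 CPM). Without both, 11366 genes passed, 5931 higher and 5435 lower, so the count of called genes did not rest on them. Inmt, a methyltransferase, shows the weight of HET cisplatin 6 on single genes: it read 506 to 587 CPM (median 559.9) under PBS and 2.49 to 27.0 CPM (median 4.06) under cisplatin, with a log2 fold change of −6.33 that was −7.10 (adjusted p = 7.78e-23) without that library.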

How the data were processed

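RNA from 31 kidneys was sequenced with an mRNA library kit, per the labels' protocols. The authors deposited 1 table with estimated counts (expected counts), TPM and FPKM per gene and library. The submitters' processing notes name fastp, STAR, featureCounts and the build GRCm38, with no settings, and do not say which tool gave fractional counts or how strand was set. The deposited TPM served as an alternative scale, and the deposited FPKM were not used. Groups follow the labels, and replicates are numbered in accession order.

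Expected counts were rounded, filtered with filterByExpr, scaled by TMM and fitted with edgeR 4.0.16 (R 4.3.3, quasi-likelihood F test) over all 31 libraries with 4 group means, with Benjamini-Hochberg adjustment over 19268 of 55487 genes and a threshold of 0.05. CPM are counts per 1000000 of the TMM-scaled library. Alternatives used limma 3.58.1, DESeq2 1.42.0, other scalings and filters, fewer libraries and added covariates. The depth of 26869000 to 36696000 counts per HET library limits low genes, and the floor of a group at 0 was 3 counts over the group, which covers counting error only. Members and the 54 lists (783 entries, 781 matched, 12 of them by an older symbol, 756 tested) were chosen with earlier results of these data known. Genes to name were drawn, not all of them printed, from Nbl1, the 15 largest rises and falls with a mean CPM of 1 or more, the 10 largest gains and losses in TPM, the 10 smallest p, the 5 smallest p of the HET and WT difference, and of each list the 3 smallest p and up to 3 exceptions. Other genes were chosen after their values were seen. Promoters come from RefSeq on GRCm38.p6. P-values measure the spread between animals.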

Additional observations from a re-analysis of the deposited data

Results flagged for a closer look

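A library far from the rest of its group, by Dixon's criterion on log2 CPM, was found in 38 of 258 pairs of a named gene and a HET group. The criterion's nominal rate is about 1 in 20 for a single gene. The genes share the same libraries and some have few counts, so that rate does not measure chance over the pairs. HET cisplatin 6 was the library in 26 of the 38. It was the lowest treated kidney, in CPM, for Havcr1 (31.6), Spp1 (2349), Casp14 (1.28), Ano3 (4.03), Celf5 (2.05), Zmat3 (233), Eda2r (66.4), Psrc1 (19.0), Zfp365 (10.2), Hk2 (4.74), Itgam (1.22), Col6a1 (25), Timp1 (0.352), Itgb4 (16.7), Tgfa (13.2), Ctsd (859), Fosl1 (1.22) and Cxcl17 (0.480). It was the highest treated kidney for Amacr (42.0), Hbb-bs (9.93), Hba-a2 (9.16), Hba-a1 (5.28), Hbb-bt (0.576), Lama3 (54.7), Inmt (27.0) and Psmb10 (16.6).

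HET PBS 2 was the lowest of its group, in CPM, for mt-Nd4 (11294) and Gclm (354). HET PBS 2 was the highest of its group, in CPM, for Il1f6 (0.135) and Cd3e (1.08). HET PBS 3 was the highest of its group, in CPM, for Cyp51 (386) and Aco1 (480.2). HET PBS 4 was the highest of its group, in CPM, for Sprr2g (0.521) and Olfr1316 (0.0347). HET PBS 6 was the highest of its group, in CPM, for Ugt2b35 (0.10). HET cisplatin 2 was the lowest of its group, in CPM, for C3 (553). HET cisplatin 4 was the highest of its group, in CPM, for Star (205). HET cisplatin 8 was the lowest of its group, in CPM, for Umod (354).

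Transcripts of the adrenal cortex, which belong to no comparison here, were read in HET cisplatin 4, with 5287 counts of Cyp11b1 and 5968 counts of Cyp21a1. The other HET libraries held at most 3 counts of either.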

How the results depend on the processing

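The count of called genes was 11374, 9858 to 14392 under the alternatives and 10912 to 11728 with 1 HET library left out at a time. The count for the difference between the HET and WT responses was 0 in each of these except the fit of the HET libraries alone, which holds no WT library. Nbl1 had a log2 fold change of 1.21 to 1.60 with 1 HET library left out, past the threshold each time, but 1.26 (adjusted p = 0.113) with limma voom and 1.43 (adjusted p = 0.0548) in a fit of the HET libraries alone, both short of it. With limma voom and quality weights, the log2 fold change changed sign for Dpp4 0.032, Fosb 1.91, Egr1 1.27 and Fos 1.38. With limma on log2(TPM + 1), the log2 fold change changed sign for Dram1 0.035, Rrm2b 0.11, Slc5a1 0.38, Serpina1f 0.27, Dpp4 0.57, Gclm 0.053, Rpl3 0.23, Fosb 0.58, Egr1 1.24 and Fos 1.08. With library totals in place of TMM, the log2 fold change changed sign for Rrm2b 0.11, Slc5a1 0.37, Serpina1f 0.17, Dpp4 0.39, Rpl3 0.16 and Fos 0.15, and the list median changed sign for replication-dependent histones 0.34, endothelium 0.088, cholesterol synthesis 0.22, cisplatin uptake and export 0.27, ER stress and integrated stress response 0.30, hypoxia targets 0.32, lysosome and autophagy 0.048, clock 0.12 and proteasome 0.32. With the number range as a covariate, the log2 fold change changed sign for Dpp4 0.036, Egr1 0.50 and Fos 1.30. Within animals 600 to 630, the log2 fold change changed sign for Slc5a1 0.051, Dpp4 0.083, Fosb 5.27, Egr1 2.37, Fos 3.94 and Arntl −0.11. Without HET cisplatin 6 and 8, the log2 fold change changed sign for Dpp4 0.066 and Fos 0.13, and the list median changed sign for replication-dependent histones 0.034. Without the 4 libraries low in Nbl1, the list median changed sign for ER stress and integrated stress response 0.15. The cause was not tested. Scaling by library totals gave 11992 higher and 2400 lower genes, and log2(TPM + 1) 12321 and 1983. The alternatives that leave out the libraries low in Nbl1 (for the difference also WT PBS 6), HET cisplatin 6 and 8, or mitochondrial and small noncoding genes were chosen after seeing the data. No paired analysis was possible because replicate numbers were given in accession order and pair no animals. Depth limits genes under about 1 CPM, such as Crct1 and Cd3e.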
